A study of Mus musculus with 10 samples.

Results

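The genes described here are 41 genes of cell division in the mouse oesophagus, 25 that act in mitosis and 16 that act in the G1-S transition and DNA replication. They were taken from the deposited count table by gene name, 41 of its 22740 protein-coding genes, and all 41 were found and had enough reads to be tested. The study measured RNA in the oesophagus of C57BL/6 mice that had all been given 4-NQO (4-nitroquinoline 1-oxide), a carcinogen used to induce squamous tumours, to compare mice lacking Grhl3, a transcription factor of surface epithelia, with wild-type mice. The Grhl3 KO group holds 5 libraries with the sample numbers 1026, 1027, 1035, 1036 and 1043, whose labels give Grhl3 as knocked out and the tissue as oesophageal tumour. The wild-type group holds 5 libraries with the numbers 1028, 1048, 1528, 1555 and 1561, whose labels name the tissue as oesophagus without the word tumour. The series' design, however, describes tumours from both groups, so genotype and a possible difference in tissue cannot be told apart. Its title calls the knockout conditional and the columns of the Grhl3 KO libraries carry "L2Cre"; the promoter that drives the recombinase, the cells that lose the gene and the ages of the mice are not given in the labels. The design text gives 5 mice in each group.

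Cells copy their DNA in S phase and divide it in mitosis, and the genes of the 2 phases are switched on in succession. E2F factors raise the genes of the G1-S transition and replication, such as those of the MCM helicase, while the DREAM and MuvB complexes, with B-Myb and FoxM1, control the mitotic genes through a short promoter element called the CHR, often with a CCAAT box bound by NF-Y nearby. In stratified epithelia such as the oesophagus dividing cells lie in and near the basal layer, and cells stop dividing as they differentiate. In whole tissue, a lower level of such a gene can come from fewer dividing cells or from less RNA per cell, and the counts do not tell these apart.

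The promoters of the 2 sets differ in these elements, and 7 are shown to make that visible: 4 mitotic genes that hold a CHR, 2 replication genes that hold an E2F element, and Mcm2, the 1 replication gene with a CHR. Each line gives the 150 bases before the transcription start on the gene's own strand, 5′ to 3′, from RefSeq (GRCm38.p6), with matches to the CHR (TTTGAA), the CCAAT box (CCAAT) or an E2F element (TTTCCCGC, TTTGGCGC, TTTGCCGC or TTTCGCGC) on either strand in capitals.
Mki67 (chr7:135716380-135716529, minus strand): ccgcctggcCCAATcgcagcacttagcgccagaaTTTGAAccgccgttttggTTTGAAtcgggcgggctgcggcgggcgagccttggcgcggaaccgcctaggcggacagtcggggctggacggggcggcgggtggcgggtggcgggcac
Top2a (chr11:99024190-99024339, minus strand): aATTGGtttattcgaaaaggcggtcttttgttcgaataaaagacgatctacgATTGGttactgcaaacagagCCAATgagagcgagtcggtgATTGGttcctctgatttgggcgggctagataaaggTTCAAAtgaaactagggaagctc
Cdc20 (chr4:118437344-118437493, minus strand): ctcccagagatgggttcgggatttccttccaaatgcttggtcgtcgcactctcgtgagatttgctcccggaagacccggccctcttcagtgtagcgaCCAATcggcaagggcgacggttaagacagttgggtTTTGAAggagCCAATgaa
Ube2c (chr2:164769779-164769928, plus strand): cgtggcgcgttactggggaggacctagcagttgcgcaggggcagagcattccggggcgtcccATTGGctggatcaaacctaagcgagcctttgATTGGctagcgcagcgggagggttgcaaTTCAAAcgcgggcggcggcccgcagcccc
Mcm6 (chr1:128359706-128359855, minus strand): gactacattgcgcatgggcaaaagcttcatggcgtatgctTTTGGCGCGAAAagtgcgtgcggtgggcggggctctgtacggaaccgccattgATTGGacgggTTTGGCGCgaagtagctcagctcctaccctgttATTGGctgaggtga
Cdc6 (chr11:98908001-98908150, plus strand): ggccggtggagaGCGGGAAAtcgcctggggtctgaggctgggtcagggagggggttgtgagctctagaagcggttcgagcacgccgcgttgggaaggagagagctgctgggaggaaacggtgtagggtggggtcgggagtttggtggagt
Mcm2 (chr6:88898781-88898930, minus strand): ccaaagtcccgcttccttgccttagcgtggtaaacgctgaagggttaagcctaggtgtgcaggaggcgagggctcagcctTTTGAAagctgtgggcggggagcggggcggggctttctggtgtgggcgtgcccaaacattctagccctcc

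Over the window from 250 bases before to 50 bases after the start, promoters of 32 of the 41 genes were found in the RefSeq table. A CHR was present in 14 of 19 mitotic genes (73.7%) and in 1 of 13 replication genes (7.69%), against 20.2% of all 27025 genes of the table. All 14 of the mitotic genes with a CHR also held a CCAAT box, a pair found in 8.97% of all genes. The E2F elements ran the other way, with 6 of 13 replication genes (46.2%; Mcm3, Mcm5, Mcm6, Mcm7, Cdc6 and Cdt1) and 1 of 19 mitotic genes (5.26%; Cdk1), against 2.6% of all genes. A CCAAT box alone stood in 89.5% of the mitotic, 61.5% of the replication and 41.1% of all genes. A gene with several promoters was counted if any of them held the element, and overlapping matches were each kept (2 E2F elements overlap in Mcm6 and 2 in Mcm5). A match of letters is not evidence that a factor binds there.

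Libraries held 15.3 to 32.9 M counts, M being the SI prefix mega, with a mean of 24.8 ± 8.21 M for the 5 Grhl3 KO libraries and 19.9 ± 2.17 M for the 5 wild-type libraries (± SD). Levels are given as CPM, counts per M of library size scaled by TMM factors, and differences as log2 fold changes, Grhl3 KO minus wild type, from edgeR's quasi-likelihood test with Benjamini-Hochberg adjustment over 13731 genes. At an adjusted p below 0.05 this test called 0.0801% of all genes. The targeted gene Grhl3 was no lower under its KO label, with 135, 234, 191, 235 and 317 CPM in Grhl3 KO libraries and 363, 114, 164, 283 and 109 CPM in wild-type libraries; gene-level counts do not show whether part of the transcript is missing. Wild-type libraries 1528 and 1555 held almost no reads of the Y-linked gene Eif2s3y (0 and 0.0539 CPM). Wild-type library 1561 held 24.9 CPM, against 68.4 to 75.6 CPM in the other 7 libraries. These 3 also have sample numbers far from the rest. The Y-linked genes Ddx3y, Kdm5d and Uty were likewise at or near 0 in libraries 1528 and 1555, and at 29.1, 10.4 and 7.95 CPM in library 1561. All 5 Grhl3 KO libraries held RNA of these genes, so a possible difference in sex cannot be fully told apart from genotype. Keratinocyte markers were abundant in every library, the 9 oesophageal epithelium markers summing to 44915 to 59525 CPM in Grhl3 KO libraries and 38774 to 100549 CPM in wild-type libraries.

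The dividing-cell genes were well covered, with at least 63 reads for every gene in every library. Levels between genes depend on the length they are divided by, and 2 lengths were used, all exons of a gene merged and, chosen after the first values were seen, its longest transcript. Under both, Cdc20, an activator of the anaphase-promoting complex, had the highest mean level over the 10 libraries, at 40.3 CPM per kb of merged exons and 41.9 CPM per kb of transcript. Cdc6, which loads the MCM helicase at origins, had the lowest under both, at 1.33 and 1.45 CPM per kb. Genes between them changed places: Cdc25c, the phosphatase that activates Cdk1, ranked 40 by merged exons (2.12 CPM per kb) and 38 by transcript (3.96 CPM per kb). The 6 MCM genes, whose products form 1 ring in equal numbers, ranged from 7.17 (Mcm2) to 19.3 CPM per kb (Mcm4) by merged exons and from 14.3 (Mcm2) to 22.0 CPM per kb (Mcm5) by transcript, so the order among them depends on the length used. Same-strand matches to other annotated genes, 75 bases or longer and 95% identical or more, covered 72.8% of the Mcm7 transcript, 52.0% of Ccnb1, 51.5% of Pcna, 27.9% of Rrm2, 26.6% of Tyms and 26.1% of Cdc6, so the counts of these 6 are uncertain; the other 35 stood below 10%.

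No difference between Grhl3 KO and wild type passed the test for any of the 41 genes. In edgeR's quasi-likelihood test 0 of 41 passed an adjusted p of 0.05 (smallest adjusted p = 0.871). An unadjusted p of 0.05 was reached by 0 of 41, against 7.16% of all genes. DESeq2 and limma voom also called 0. The 41 log2 fold changes comprised 19 above 0 and 22 below, with a median of −0.03 and a range from −0.33 for Cdc25c to 0.21 for Cdc20, and their median size of 0.06 was below the 0.13 of all genes. The ranges of the groups overlapped for all 41, while 1.35% of all genes did not overlap. The 95% limits held 0 for all 41 and stayed within a 2-fold change in either direction for all 41, the lowest limit being −0.96 (Plk1) and the highest 0.87 (Tyms). Smaller changes are within these limits, whose median half-width was 0.55 for the 41 genes and 0.36 for all genes.

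**Figure D1:**
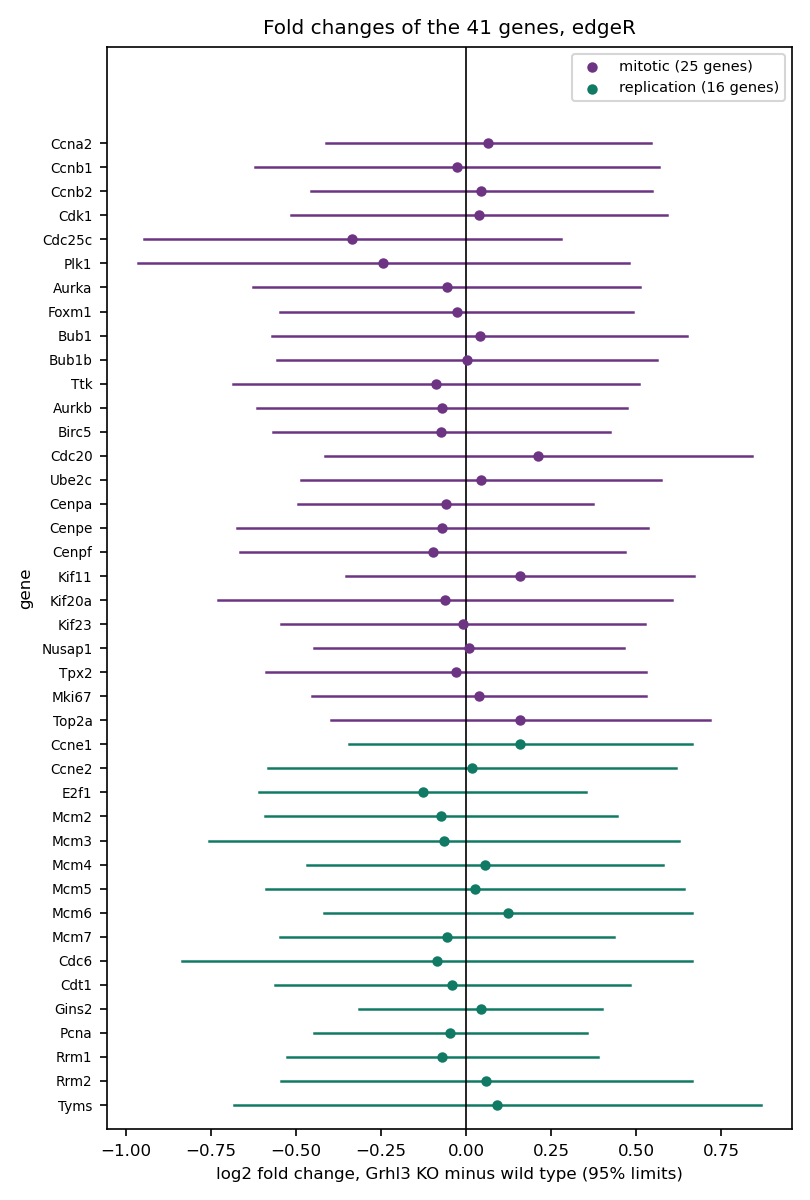
Log2 fold change, Grhl3 KO minus wild type, of each of the 41 genes (points) with its 95% limits (lines), from edgeR; mitotic genes are purple and replication genes green. The points lie between −0.33 and 0.21 and every line crosses 0.

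Of the genes that bring cells into mitosis, Plk1, a kinase of mitotic entry and spindle assembly, had 20.9, 21.4, 34.9, 30.6 and 31.9 CPM in Grhl3 KO libraries 1026, 1027, 1035, 1036 and 1043, and 15.4, 38.0, 40.7, 17.7 and 53.8 CPM in wild-type libraries 1028, 1048, 1528, 1555 and 1561; values below follow the same order of libraries. The wild-type values lay on both sides of all 5 Grhl3 KO values, and the log2 fold change was −0.24 (SE 0.33, edgeR adjusted p = 0.938). Cdc25c had 7.55, 8.45, 10.1, 10.2 and 9.73 CPM in Grhl3 KO libraries and 6.41, 15.95, 13.8, 6.31 and 15.7 CPM in wild-type libraries. It had the smallest p of the 41 genes, but 3 wild-type libraries stood above and 2 below every Grhl3 KO library, and the log2 fold change of −0.33 (SE 0.28) had an edgeR adjusted p of 0.871. Ccnb1, the main cyclin partner of Cdk1 at mitotic entry, had 25.5, 28.6, 39.7, 33.8 and 43.3 CPM in Grhl3 KO libraries and 19.9, 47.5, 38.6, 20.7 and 47.3 CPM in wild-type libraries. Again the 2 lowest and the 2 highest libraries were wild type, and the log2 fold change was −0.03 (SE 0.27, edgeR adjusted p = 0.992). The other 5 genes of this group were Ccna2, Ccnb2, Cdk1, the kinase Aurka and the transcription factor Foxm1, with log2 fold changes from −0.06 (Aurka) to 0.07 (Ccna2). Over the 8 genes the median was −0.03, with 3 above and 5 below 0.

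The spindle checkpoint holds anaphase back until every chromosome is attached, and Cdc20 with the anaphase-promoting complex then ends mitosis. Cdc20 had 48.6, 66.5, 90.2, 83.3 and 115 CPM in Grhl3 KO libraries and 42.2, 84.3, 76.4, 43.7 and 102 CPM in wild-type libraries. Grhl3 KO library 1043 was the highest of the 10 and wild-type libraries 1028 and 1555 the lowest. Its log2 fold change of 0.21 (SE 0.28, edgeR adjusted p = 0.938) was 0.04 without Grhl3 KO library 1043 and 0.39 without wild-type library 1561. The other 6 genes of this group lay between −0.09 and 0.04. They encode the checkpoint kinases Bub1 and Ttk and the checkpoint protein BubR1 (Bub1b), the chromosomal passenger proteins Aurora B (Aurkb) and survivin (Birc5), and Ube2c, the ubiquitin-conjugating enzyme of the anaphase-promoting complex. Bub1b was nearly level, at 36.9 ± 7.79 CPM in Grhl3 KO libraries and 36.8 ± 14.3 CPM in wild-type libraries (SD, n = 5 each). Ube2c averaged 62.3 ± 7.24 CPM in Grhl3 KO libraries and 60.4 ± 23.9 CPM in wild-type libraries, with close means and a wider spread in wild type.

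The centromere and kinetochore genes Cenpa (centromeric histone H3), Cenpe (a kinetochore motor) and Cenpf had log2 fold changes of −0.06, −0.07 and −0.10. Among 5 genes of spindle motors and spindle assembly, Kif11, the motor that pushes spindle poles apart, stood at 0.16 (SE 0.23, edgeR adjusted p = 0.945), and Kif20a, Kif23, Nusap1 and Tpx2 between −0.06 and 0.01. Kif20a and Kif23 encode motors of the central spindle and cytokinesis, and Nusap1 and Tpx2 proteins that organise spindle microtubules. Mki67, which coats mitotic chromosomes and is the routine marker of dividing cells, had 212, 188, 289.8, 235 and 256 CPM in Grhl3 KO libraries and 153, 333, 196, 168 and 300.1 CPM in wild-type libraries. The 2 highest and the 2 lowest values were wild type, and all 5 Grhl3 KO values fell inside the wild-type range. Mki67 had a log2 fold change of 0.04 (SE 0.22, edgeR adjusted p = 0.989) with 95% limits of −0.45 and 0.53. Top2a, the topoisomerase that untangles sister chromatids, had 136, 126, 225, 226 and 198 CPM in Grhl3 KO libraries and 131, 198, 148, 98.4 and 242 CPM in wild-type libraries. Both groups again held high and low libraries, and the log2 fold change was 0.16 (SE 0.25, edgeR adjusted p = 0.948).

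**Figure D2:**
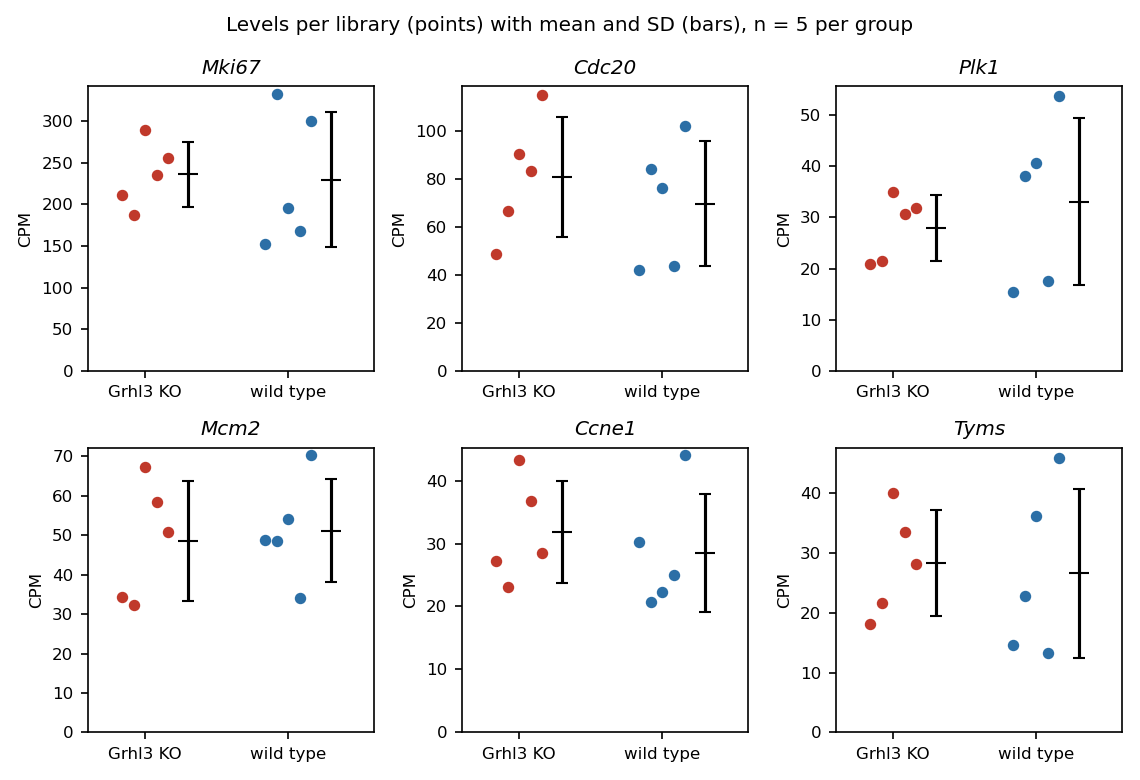
CPM of 6 genes in each library (points, Grhl3 KO red and wild type blue, in order of sample number within a group) with the mean and SD (bars, n = 5 per group); axes start at 0. Grhl3 KO and wild-type points overlap in every panel, and for Plk1 the wild-type points reach from 15.4 to 53.8 CPM.

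Among the G1-S genes, Ccne1 encodes cyclin E1, which with Cdk2 starts S phase, and had 27.2, 23.1, 43.3, 36.8 and 28.5 CPM in Grhl3 KO libraries and 30.3, 20.7, 22.4, 25.0 and 44.003 CPM in wild-type libraries. The highest and the lowest libraries were both wild type, and the log2 fold change was 0.16 (SE 0.23, edgeR adjusted p = 0.944). E2f1, an activator of the G1-S genes, had 11.5, 8.26, 16.6, 13.8 and 10.9 CPM in Grhl3 KO libraries and 13.8, 10.5, 15.7, 9.43 and 17.3 CPM in wild-type libraries. Its log2 fold change was −0.13 (SE 0.22, edgeR adjusted p = 0.951), and that of Ccne2, the second E cyclin, was 0.02.

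Mcm2, a subunit of the replicative helicase, had 34.3, 32.2, 67.3, 58.3 and 50.7 CPM in Grhl3 KO libraries and 48.8, 48.5, 54.1, 34.0 and 70.4 CPM in wild-type libraries. Here Grhl3 KO libraries 1026 and 1027 were as low as the lowest wild-type library, and wild-type libraries 1028 and 1048, which stood far apart for the mitotic genes, differed by less than 1 CPM. The log2 fold change was −0.07 (SE 0.23, edgeR adjusted p = 0.979), and over the 6 MCM genes the values ran from −0.07 to 0.12 with 3 above and 3 below 0. Pcna, the sliding clamp of the DNA polymerases, had 45.7, 47.8, 74.3, 62.4 and 59.2 CPM in Grhl3 KO libraries and 63.5, 51.7, 56.7, 43.8 and 83.3 CPM in wild-type libraries. Together with Gins2 it had the smallest biological coefficient of variation (the spread between libraries beyond counting error, as edgeR estimates it) of the 41 genes, and its log2 fold change was −0.05 (SE 0.18, edgeR adjusted p = 0.982). Gins2, a subunit of the GINS part of the helicase, had 11.3, 10.02, 15.5, 13.8 and 11.8 CPM in Grhl3 KO libraries and 12.2, 12.2, 9.97, 10.6 and 15.7 CPM in wild-type libraries. Its log2 fold change of 0.04 had 95% limits of −0.31 to 0.40, the narrowest of the 41 (edgeR adjusted p = 0.981).

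Cdc6 had 3.96, 3.52, 9.83, 10.8 and 5.55 CPM in Grhl3 KO libraries and 6.51, 5.48, 8.17, 5.28 and 10.4 CPM in wild-type libraries. It had the second largest biological coefficient of variation, and unlike the mitotic genes it was more spread in Grhl3 KO than in wild type, with SDs of log2 CPM of 0.73 and 0.40. Its log2 fold change was −0.09 (SE 0.34, edgeR adjusted p = 0.981), and that of Cdt1, its partner in loading the helicase, was −0.04. Of the enzymes that supply nucleotides, Rrm2, the small subunit of ribonucleotide reductase, had 35.7, 34.6, 76.0, 66.1 and 49.97 CPM in Grhl3 KO libraries and 37.1, 48.1, 55.3, 34.2 and 77.2 CPM in wild-type libraries. Both groups thus spanned nearly the same range, and the log2 fold change was 0.06 (SE 0.27, edgeR adjusted p = 0.985). Tyms, thymidylate synthase, had 18.1, 21.7, 40.02, 33.4 and 28.1 CPM in Grhl3 KO libraries and 14.6, 22.9, 36.1, 13.3 and 45.9 CPM in wild-type libraries. It had the largest biological coefficient of variation of the 41 genes and a log2 fold change of 0.09 (SE 0.35, edgeR adjusted p = 0.981), while Rrm1, the large subunit of ribonucleotide reductase, stood at −0.07.

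The genes varied together from library to library within both groups. Averaged over the 25 mitotic genes, log2 CPM stood −0.26, −0.23, 0.25, 0.16 and 0.21 from the mean of the 10 libraries in Grhl3 KO and −0.54, 0.42, 0.11, −0.68 and 0.56 in wild type. For the 16 replication genes these differences were −0.33, −0.48, 0.53, 0.27 and 0.03 in Grhl3 KO and −0.07, −0.10, 0.05, −0.50 and 0.62 in wild type. Wild-type library 1561 was the highest of all 10 for 14 of 25 mitotic and 13 of 16 replication genes, and wild-type library 1555 the lowest for 18 of 25 and 9 of 16. All 25 mitotic genes were lower in wild-type library 1555 than in any Grhl3 KO library. The share of all genes with such positions in these libraries was not counted. The median ratio of library 1561 to library 1555 was 2.46 for the mitotic and 2.15 for the replication genes.

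**Figure D3:**
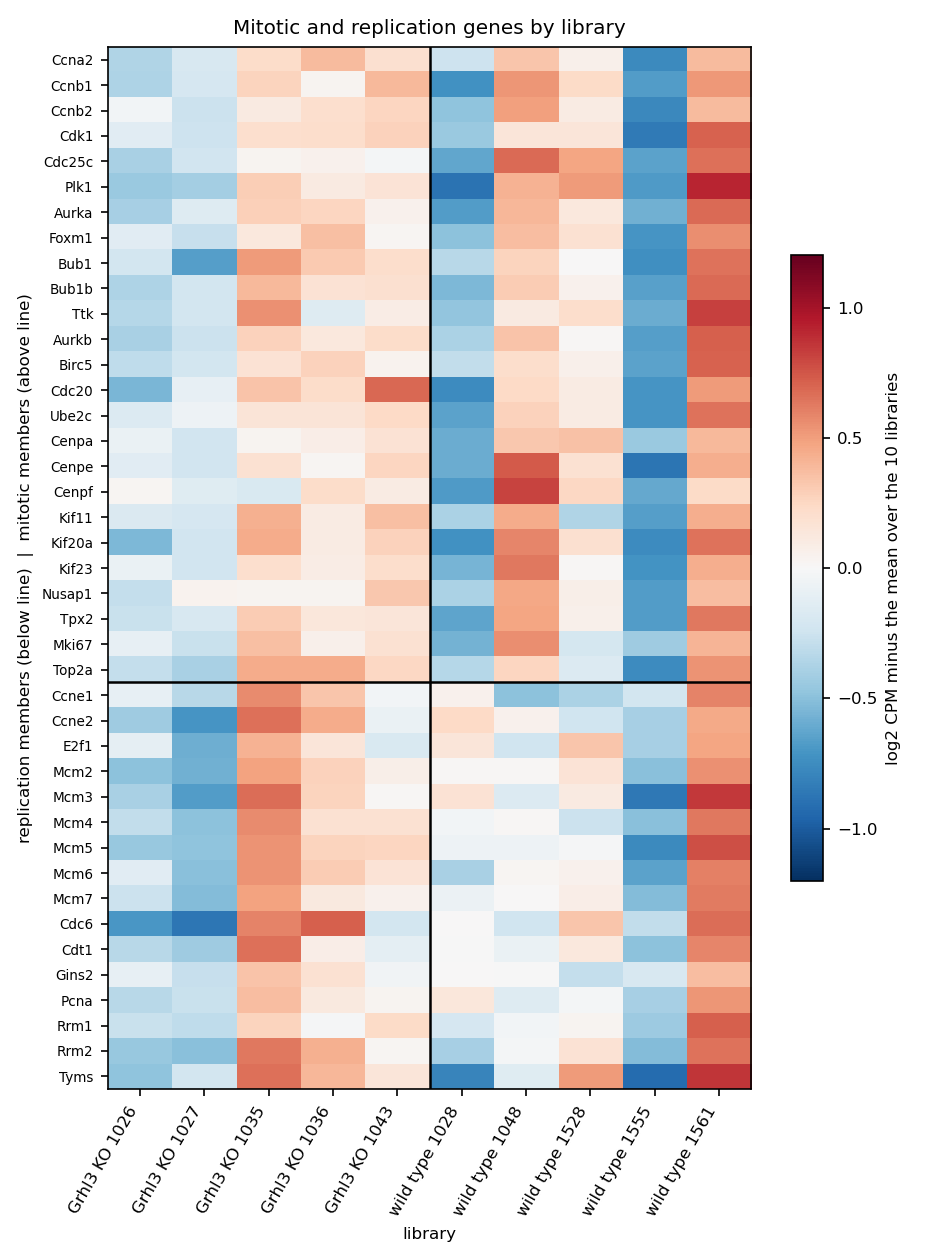
Log2 CPM minus the gene's mean over the 10 libraries (colour, red above and blue below) for the 41 genes (rows, mitotic above the line and replication below it) in each library (columns, Grhl3 KO left and wild type right). Columns tend to hold 1 colour over many rows, with wild-type library 1555 blue and wild-type library 1561 red throughout, and wild-type library 1048 red mainly for mitotic genes.

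The mitotic and the replication genes differed most from each other in 2 wild-type libraries. Library 1048 was the highest of all 10 for 9 mitotic genes but for 0 replication genes, and it ranked among the top 3 for 20 of 25 mitotic and 0 of 16 replication genes. Its mitotic mean minus its replication mean, each taken from the 10-library mean, was 0.51. Library 1028 showed the opposite, with a difference of −0.46, the bottom 3 for all 25 mitotic genes and for 2 of 16 replication genes. The other 8 libraries lay between −0.28 and 0.25. All 25 mitotic genes were higher in library 1048 than in library 1028, with a median ratio of 1.89, while 7 of 16 replication genes were higher, with a median ratio of 0.995. Cenpf, for example, stood at 76.5 CPM in library 1048 and 27.2 CPM in library 1028, whereas Mcm2 stood at 48.5 and 48.8 CPM. These are single libraries, and the libraries were picked out here after their values were seen. The share of all genes that ranked in these ways was not counted.

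**Figure D4:**
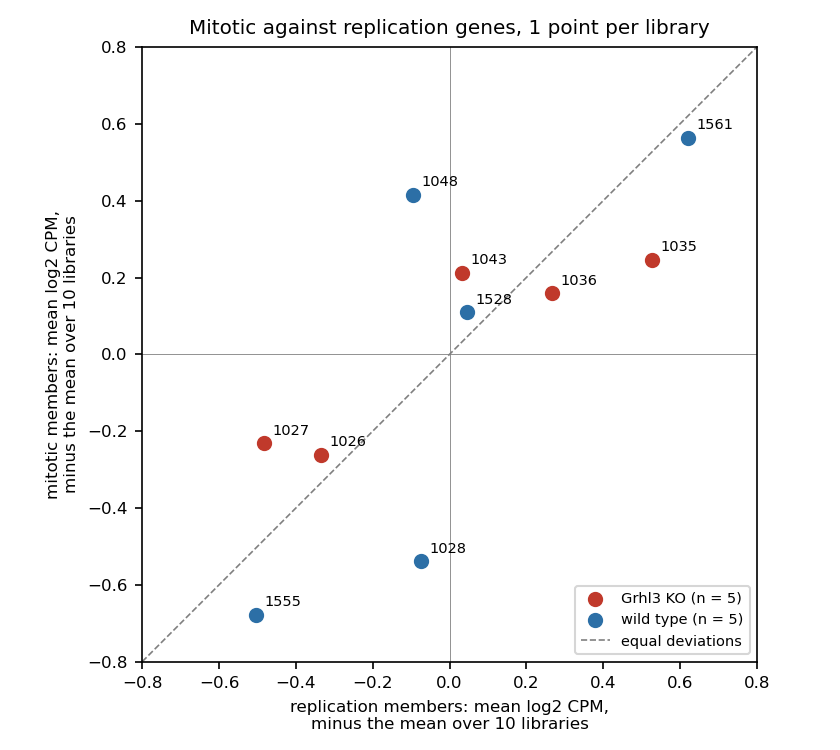
Mean log2 CPM of the 25 mitotic genes (vertical axis) against that of the 16 replication genes (horizontal axis), each minus its mean over the 10 libraries; 1 point per library, Grhl3 KO red and wild type blue, with equal deviations on the dashed line. Wild-type libraries 1048 and 1028 lie farthest from the line, 0.51 above and 0.46 below it on the vertical axis, and libraries 1555 and 1561 are the extremes along it.

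The mitotic genes were more spread in wild type than in Grhl3 KO. The SD of log2 CPM was larger in wild type for 25 of 25 mitotic genes and 9 of 16 replication genes, against 67.0% of all genes. The mean over the 25 mitotic genes had an SD of 0.25 in Grhl3 KO and 0.56 in wild type, and that over the 16 replication genes 0.42 in Grhl3 KO and 0.40 in wild type (n = 5 each). No test was made of these SDs. The 25 mitotic genes varied together over the same libraries, so they are not 25 independent observations. Among the 7 libraries other than the 3 wild-type libraries with little or less Y-linked RNA, 2 are wild type. Of these, library 1028 was the lowest of the 7 for 20 and library 1048 the highest for 17 of 25 mitotic genes, and the share of all genes was not counted. The part of the 3 libraries in the mitotic spread was not tested. In both groups together, all 41 genes had a biological coefficient of variation above the median of all genes, 0.201. It ran from 0.206 (Gins2) to 0.390 (Tyms), followed by Cdc6 (0.388) and Plk1 (0.364), with a median of 0.283. The highest library exceeded the lowest by a median of 2.48 times for the 41 genes and 1.79 times for all genes.

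To ask how closely the genes followed one another, each gene was correlated with Mki67 over the 10 libraries on the log2 CPM scale. All 40 other genes had a positive Pearson's r. At a permutation p adjusted over 13730 genes, 0 of 40 passed 0.05 (0.00% of all genes). At an unadjusted permutation p of 0.05, 24 of 24 mitotic genes and 7 of 16 replication genes passed with a positive r, against 5.48% of all genes. The median r was 0.85 for mitotic and 0.61 for replication genes, and about 0.00 over all genes. Kif23 had the highest (r = 0.95, Spearman's rho = 0.96, permutation p = 5e-05 and 1e-04, adjusted p = 0.137 and 0.196), followed by Kif11 (r = 0.94) and Tpx2 (r = 0.93), all 3 genes of the spindle. The lowest values were those of the G1-S genes E2f1 (r = 0.30, rho = 0.30, permutation p = 0.384 and 0.406, adjusted p = 0.776 and 0.811) and Ccne1 (r = 0.33, rho = 0.20, permutation p = 0.348 and 0.583, adjusted p = 0.753 and 0.892).

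**Figure D5:**
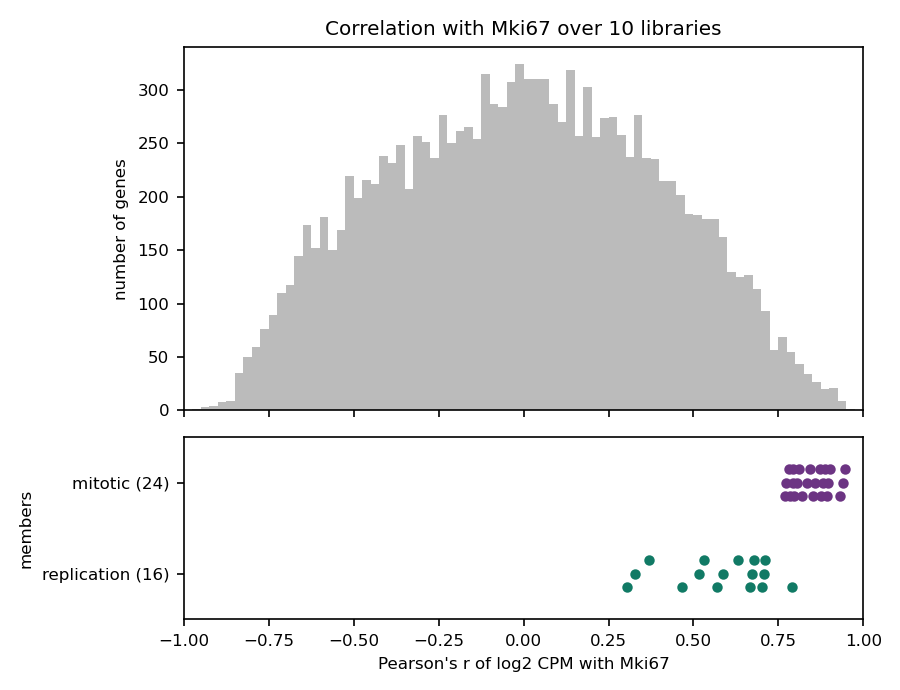
Pearson's r with Mki67 over 10 libraries of log2 CPM: histogram of all 13730 other genes (grey, above) and the 24 mitotic and 16 replication genes (points, below; their vertical offsets carry no value). Mitotic genes lie between 0.77 and 0.95 and replication genes between 0.30 and 0.79.

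The gap between the mitotic and the replication genes rested on 2 libraries. Without wild-type libraries 1048 and 1028, which lie farthest from the median of Mki67, the median r with Mki67 was 0.83 for mitotic and 0.89 for replication genes. Single genes moved too, with r of 0.90 for Kif23, 0.71 for E2f1 and 0.88 for Ccne1 without them. In the 7 libraries with the lower sample numbers the median r was 0.90 for mitotic and 0.46 for replication genes, and with the group means removed it was 0.85 for mitotic and 0.62 for replication genes. Scaled by total counts alone, 1 of the 40 genes passed (Kif23, adjusted permutation p = 0.0458) among 11 of all 13730, but the median r of all genes with Mki67 then moved to 0.32.

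With Mcm2 in place of Mki67, an anchor chosen after the first values were seen, the order turned round. The median r was 0.91 for the 15 other replication genes (rho 0.93) and 0.71 for the 25 mitotic genes (rho 0.65), all 40 positive. At an unadjusted permutation p of 0.05, 15 of 15 replication and 18 of 25 mitotic genes passed, against 7.41% of all genes. Of the 40 genes 1 passed after adjustment, against 0.0364% of all genes: Mcm7, another subunit of the ring, with r = 0.96, rho = 0.99 and an adjusted permutation p of 0.0458. This call was lost when any of Grhl3 KO libraries 1026, 1027 and 1035 and wild-type libraries 1555 and 1561 was left out, with adjusted permutation p of Mcm7 from 0.0189 to 0.114 over the 10 libraries left out in turn. The number of the 40 genes that passed ran from 0 to 4, with 3 without wild-type library 1028, 4 without wild-type library 1528 and 1 without each of Grhl3 KO libraries 1036 and 1043 and wild-type library 1048. The share of all genes that passed was not counted with a library left out, so these numbers have no background beside them. Without Grhl3 KO library 1027 and wild-type library 1555, the farthest from the median of Mcm2, the medians were 0.84 for replication and 0.61 for mitotic genes, and r of Mcm7 was 0.93.

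Grhl3 itself, looked at after its levels were seen, had a negative correlation with Mki67 that did not pass after adjustment (r = −0.65, rho = −0.65, permutation p = 0.0454 and 0.0496, adjusted p = 0.424 and 0.482 over 13730 genes). It was highest in wild-type library 1028 (363 CPM), where the mitotic genes were low, and lowest in wild-type libraries 1048 and 1561 (114 and 109 CPM), where they were high. Wild-type library 1555 had 283 CPM of Grhl3 with a mitotic mean −0.68 from the mean of all libraries. Wild-type library 1528 had 164 CPM with a mitotic mean 0.11 from it. Grhl3 KO libraries 1043 and 1026 did not follow this order. Grhl3 KO library 1043 had a high level of Grhl3 (317 CPM) with a mitotic mean 0.21 from the mean of all libraries. Grhl3 KO library 1026 had a low level of Grhl3 (135 CPM) with a mitotic mean −0.26 from it. Without wild-type libraries 1048 and 1028, the farthest from the median of Mki67, r was −0.37. Leaving them out also narrows the range of Mki67. The value of r was −0.62 in the 7 libraries with the lower sample numbers and −0.70 with the group means removed. In the all-gene ranking of r, 688 of 13730 genes were as negative as Grhl3 or more so.

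Among markers of other cell types and layers, 0 of the marker genes passed an adjusted permutation p of 0.05 with Mki67. The 10 suprabasal keratinocyte markers, which mark cells that have left the cycle, had a median r with Mki67 of −0.63. Among them Ivl (r = 0.31) and Krt1 (r = 0.06) were positive. The median was 0.13 for the 9 basal keratinocyte, −0.02 for the 12 skeletal muscle and −0.44 for the 7 T and NK cell markers. The summed level of the suprabasal markers was 25575, 29758, 17616, 25408 and 38989 CPM in Grhl3 KO libraries and 73725, 16090, 30899, 31039 and 10481 CPM in wild-type libraries. It was thus highest in wild-type library 1028 and lowest in wild-type libraries 1561 and 1048. Grhl3 KO library 1043 was second highest, with a mitotic mean 0.21 from the 10-library mean. Wild-type libraries 1528 and 1555 had similar sums, with mitotic means 0.11 and −0.68 from it. Krt13 and Krt4 (r with Mki67 of −0.80 and −0.75) made up 81.4% of the mean sum. The neutrophil markers did not move as 1 list, S100a8 and S100a9, which keratinocytes also express, having r with Mki67 of −0.62 and −0.66, and Cxcr2 −0.28, Csf3r 0.14 and Retnlg 0.22. Between Grhl3 KO and wild type some marker lists had medians farther from 0 than the dividing-cell genes. The median log2 fold change was −0.60 for smooth muscle, −0.38 for erythroid, 0.30 for fibroblast, −0.27 for neutrophil and −0.18 for oesophageal epithelium markers. In these lists 0 genes were called. Medians were nearer 0 for T and NK cell (−0.02), macrophage and dendritic cell (−0.01) and endothelial markers (0.05). The median biological coefficient of variation was 0.52 for suprabasal, 0.58 for skeletal muscle and 0.24 for basal keratinocyte markers, against 0.28 for the 41 genes. Of the 10 suprabasal markers 6 had an unadjusted p below 0.05, against 7.16% of all genes, and 1 passed after adjustment, Krt1, a keratin of cornified layers, which rose with a log2 fold change of 3.05 (SE 0.43, edgeR adjusted p = 0.0358). Krt1 had 98.6, 301, 306, 168 and 127 CPM in Grhl3 KO libraries and 29.5, 25.4, 10.3, 39.2 and 16.7 CPM in wild-type libraries, without overlap. Leaving out any 1 library but Grhl3 KO library 1026 ended that call, with log2 fold changes from 2.84 to 3.28 and edgeR adjusted p from 0.0322 to 0.127, as did limma voom (adjusted p = 0.0892), while DESeq2 kept it. The 10 did not share a direction, with 2 above and 8 below 0 and a median of −0.34. The 12 skeletal muscle markers were all above 0 with a median of 0.52 and 0 called, and of the 9 basal keratinocyte markers 8 were below 0 with a median of −0.27 and 0 called. The part of these cell types in the levels of the mitotic genes was not tested beyond the epithelial, immune and muscle covariates tried for the fold changes. Of the markers in the table, 0 were at 0 in every library.

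Other genes of the same machinery, 165 in 9 lists, gave 0 genes past the threshold between Grhl3 KO and wild type in edgeR's quasi-likelihood test, with 64 above and 101 below 0 and a median log2 fold change of −0.02; 3 of 165 had an unadjusted p below 0.05, a smaller share than the 7.16% of all genes. These were the D cyclins Ccnd1 and Ccnd2, which link growth signals to the cell cycle, and Pttg1, securin. Ccnd1 averaged 217 ± 33.4 CPM in Grhl3 KO libraries and 347 ± 133 CPM in wild-type libraries, for a log2 fold change of −0.68 (SE 0.23, edgeR adjusted p = 0.524). Ccnd2 averaged 127 ± 46.4 CPM in Grhl3 KO libraries and 211 ± 102 CPM in wild-type libraries, for a log2 fold change of −0.73 (SE 0.32, edgeR adjusted p = 0.695). Pttg1 averaged 17.7 ± 1.95 CPM in Grhl3 KO libraries and 21.4 ± 1.54 CPM in wild-type libraries (log2 fold change −0.28, edgeR adjusted p = 0.575). The median r with Mki67 was 0.26 for the 6 G1 cyclins and their kinases, against 0.86 for the 25 further genes of mitotic motors and cytokinesis.

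By list, the 29 DNA polymerase and fork genes had 6 above and 23 below 0 with a median of −0.09, and Pole3, a small subunit of polymerase epsilon, had the smallest p among them (−0.21, edgeR adjusted p = 0.728). The 19 genes of origin recognition and pre-initiation had 6 above and 13 below, with Orc4 at 0.15 and geminin (Gmnn), the inhibitor of Cdt1, at −0.20. The 18 genes of the RB, E2F and MuvB regulators had 10 above and 8 below; E2f2, an activator like E2f1, averaged 10.7 ± 4.37 CPM in Grhl3 KO libraries and 6.37 ± 2.65 CPM in wild-type libraries (0.74, edgeR adjusted p = 0.711). The 8 CDK inhibitor genes had 2 above and 6 below, with Cdkn1c at 0.66 and Cdkn2a at −0.62 (edgeR adjusted p = 0.815 and 0.841). The 29 further kinetochore genes had 11 above and 18 below, the 17 cohesin and condensin genes 11 and 6, the 25 further genes of mitotic motors and cytokinesis 9 and 16, and the 14 checkpoint and mitotic entry genes 6 and 8. Against Mki67, the further kinetochore genes had a median r of 0.76, the cohesin and condensin genes 0.71 and the DNA polymerase genes 0.51. For the mitotic motor and cytokinesis list the SD of log2 CPM was larger in wild type for 24 of 25 genes and for the kinetochore list for 27 of 29, against 12 of 18 for the RB, E2F and MuvB list.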

How the data were processed

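RNA was sequenced from 10 oesophageal samples; a Qiagen micro column kit was used for extraction, per the labels' protocols, and RNA was made into libraries with a stranded TruSeq mRNA kit. The deposited table holds raw counts per gene, without normalization; featureCounts and GRCm38 are named in the submitters' processing notes. Not given in the sources used here are versions, the aligner, the annotation release and the treatment of reads that match several genes. The file is named as reverse-stranded counts of protein-coding genes, and columns were joined to samples by sample number.

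Genes were filtered with filterByExpr of edgeR 4.0.16 in R 4.3.3 (minimum count 10, minimum total 15), which left 13731, scaled by TMM and tested by edgeR's quasi-likelihood method, robust dispersions included, with Benjamini-Hochberg adjustment (threshold 0.05). Log2 CPM carries a prior count of 2. Total counts did not differ past an exact two-sided permutation test (p = 0.246), and depth limits precision as given by the standard errors. Correlations used 100000 permutations over 10 libraries and all orders for fewer (Python 3.11.15, numpy 2.4.6), two-sided. Near-identical stretches were found with blastn 2.17.0 on transcripts of the GENCODE annotation of GRCm38, which also gave exon lengths. The tests were tried on simulated data.

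Alternatives were RLE, upper-quartile and total-count scaling, DESeq2 1.42.0, limma 3.58.1 voom, dispersions that were not robust, other filters, each library left out, the 7 libraries with the lower sample numbers alone, and epithelial, muscle and immune covariates. The 41 genes, the pathway lists and the marker lists were chosen with earlier results of these data known, so no test over a list was made. Values per library are given for 10 members chosen for their roles, the 4 of smallest p, and the 3 of largest and 2 of smallest biological coefficient of variation; of each pathway list up to 3 genes of smallest p were named. Promoters came from the RefSeq table, and 9 members had none there. Non-coding genes were not analysed here. The marker gene Trac was not matched.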

Additional observations from a re-analysis of the deposited data

How the results depend on the processing

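Under all 22 alternatives 0 of the 41 genes were called, the smallest adjusted p of any of them being 0.592, and no log2 fold change left the range −0.50 to 0.60. The count of all genes called, 11, was 119 with DESeq2, 1 with limma voom, 7 without the low-count filter, 1 in the 7 libraries with the lower sample numbers, 3 with the epithelial and 7 with the immune covariate, and 1 to 16 with 1 library left out. The median of the mitotic genes ran from −0.18 to 0.14 and that of the replication genes from −0.15 to 0.15 with 1 library left out. Of the 14 genes given library by library, 265 of 308 log2 fold changes under alternatives kept their sign and 0 passed the threshold. Some changed sign with limma voom, in the 7 libraries or with a covariate. The largest of those given here was Cdc6, at 0.17 in the 7 libraries against −0.087 in the main fit. Ccnb1 was 0.053 with voom, 0.022 in the 7 libraries and 0.15 with the immune covariate. Mki67 was −0.039 in the 7 libraries and −0.023 with the epithelial covariate. Plk1 was 0.069 in the 7 libraries and 0.043 with the immune covariate. In the 7 libraries Mcm2 was 0.0012, Pcna 0.0097, E2f1 0.0082 and Cdc6 0.17, and Rrm2 was −0.00057 with the epithelial covariate. With 1 library left out the ranges were −0.090 to 0.21 for Mki67, −0.18 to 0.11 for Ccnb1, −0.44 to 0.0026 for Plk1, −0.22 to 0.070 for Mcm2, −0.15 to 0.10 for Pcna, −0.11 to 0.27 for Rrm2, −0.33 to 0.085 for Cdc6, −0.091 to 0.38 for Tyms and −0.047 to 0.15 for Gins2; the cause of these changes was not tested. Of the other 40 genes, the number correlated with Mki67 after adjustment was 1 with total counts alone and 0 under the other 16 alternatives with Mki67. Over all 13730 genes it was 11 with total counts alone, 4 without Grhl3 KO library 1026 and 0 in the others. The smallest permutation p was 0.000198 in the 7 libraries and 0.000139 with group means removed. Many genes would have had to reach such values together to pass, so 0 in those settings carries little weight. With Mcm2 in place of Mki67, chosen after the data were seen, it was 1 of 40, and 0 to 4 with 1 library left out. For Mcm2 with a library left out, the share of all genes was not counted. No paired analysis was possible because the groups share no sample numbers. With 5 libraries per group precision differed between genes, the 95% limits having a median half-width of 0.55 over the 41 genes. The wild-type group mixes libraries that differ in Y-linked RNA, while all 5 Grhl3 KO libraries hold it.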
